A study of Homo sapiens with 12 samples.

Results

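The cyclins and G1 cyclin-dependent kinases described here were 10 genes, CCND1, CCND3, CDK4, CDK6, CCNE1, CCNE2, CDK2, CCNA2, CCNB1 and CCNB2, out of 14828 genes with expression values. They were chosen by name, as the rows of the expression table that carry these symbols, and all 10 were present and were tested among 14624 genes. Expression was measured by RNA-seq of mRNA in 22Rv1, a human prostate carcinoma cell line. Every group carried the doxycycline-inducible pTRIPZ lentiviral vector, was selected with puromycin and received doxycycline at 2 µg/ml for 72 h. The control group, shNT, expressed a nontargeting shRNA. The groups shCENPA1 and shCENPA2 each expressed a different shRNA against CENPA, the histone H3 variant that marks centromeres. There were 2 libraries per shRNA and 6 in all, each sequenced in lanes 7 and 8, and both lanes of a library were averaged, so that n = 2 libraries per group. Whether the libraries of a group came from separate cultures, and whether the transduced cells were a pool or a clone, is not given in the sources used here, so p-values measure the spread between these libraries, which may be technical. Cells without doxycycline were not analysed here.

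Cyclins are regulatory subunits that switch on cyclin-dependent kinases (CDKs), and different cyclins are present at different stages of the cell cycle. D-type cyclins bind CDK4 and CDK6 in G1 and transmit growth signals to the retinoblastoma protein. E-type cyclins bind CDK2 at entry into S phase, cyclin A2 binds CDK2 and CDK1 from S phase to G2, and B-type cyclins bind CDK1 and drive mitosis. In prostate cancer cells the androgen receptor and growth factor signals act on this machinery largely through D cyclins, and CDK4 and CDK6 are drug targets in several cancers. The mRNAs of cyclins E, A and B rise and fall with the cell cycle, whereas those of D cyclins, CDK4 and CDK6 vary less with it.

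Promoter sequence was available from RefSeq (GRCh38.p14) for 7 of the 10 genes, namely CCND3, CDK4, CDK6, CCNE1, CCNA2, CCNB1 and CCNB2. It is shown for 5 of them, in which a difference between shRNAs and shNT did (CCNA2, CCNB1, CCNB2) or did not (CDK4, CCNE1) pass the test given further on. CCND3, which held a CCAAT box, and CDK6 did not pass either and are not shown. Each line holds the 120 bases just before the annotated start, 5′ to 3′ on the strand of the gene, and capitals mark a match to the CCAAT box or to the cell cycle homology region (CHR element), elements known from promoters of G2/M genes. The CCAAT box was searched as CCAAT and the CHR element as TTTGAA or TTCGAA, on both strands, and a CCAAT box on the other strand reads ATTGG. The stretches lie at chr4:121823884-121824003 (minus strand) for CCNA2, chr5:69167030-69167149 (plus strand) for CCNB1, chr15:59105026-59105145 (plus strand) for CCNB2, chr12:57752311-57752430 (minus strand) for CDK4 and chr19:29811871-29811990 (plus strand) for CCNE1.
CCNA2: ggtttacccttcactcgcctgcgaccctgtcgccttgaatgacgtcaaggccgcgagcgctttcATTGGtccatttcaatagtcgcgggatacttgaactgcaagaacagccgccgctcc
CCNB1: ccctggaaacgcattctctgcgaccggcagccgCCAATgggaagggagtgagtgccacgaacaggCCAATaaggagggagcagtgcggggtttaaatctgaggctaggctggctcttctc
CCNB2: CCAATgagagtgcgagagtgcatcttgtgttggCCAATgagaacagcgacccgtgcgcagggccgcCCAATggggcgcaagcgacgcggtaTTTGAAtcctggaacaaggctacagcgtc
CDK4: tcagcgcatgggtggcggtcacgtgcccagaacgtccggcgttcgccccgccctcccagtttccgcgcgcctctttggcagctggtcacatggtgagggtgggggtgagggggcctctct
CCNE1: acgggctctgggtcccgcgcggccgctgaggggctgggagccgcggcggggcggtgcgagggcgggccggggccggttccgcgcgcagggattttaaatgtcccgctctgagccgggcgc

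Within the whole promoter windows of 300 bases (250 before and 50 after the start), CCNB2 held 4 CCAAT boxes, beginning at positions -244, -120, -87 and -54 from the start, and a CHR element beginning at position -29. CCNB1 held 2 CCAAT boxes, at -87 and -55, and CCNA2 held 1, on the other strand, at -56. CDK4, CDK6 and CCNE1 held no match to the letters of either element, and CCND3 held a CCAAT box in 2 of its 3 annotated promoter windows. Of all 35116 promoter windows of the same length, 34.6% held a CCAAT box and 16.4% a CHR element. An E2F element, searched as TTTNGCGC or TTTNCCGC, was found in none of these windows of the 7 genes and in 4.95% of all windows. A match describes letters only. A missing match, such as that of the CHR element in CCNA2 and CCNB1, says only that the letters searched are not in the window. Other forms of these elements were not searched.

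Libraries held 79172294 to 133074655 reads on genes, and the reads on single members ranged from 491 (CCNE1 with shCENPA1) to 285137 (CCND1 with shNT). CENPA, the targeted gene, fell by 70.9% with shCENPA1 (adjusted p = 0.000287) and fell by 85.3% with shCENPA2 (adjusted p = 1.13e-05), in limma's test across all genes with Benjamini-Hochberg adjustment, and it was lower with shCENPA2 than with shCENPA1 (log2 fold change -0.98, adjusted p = 0.0209). Luminal prostate markers were 6 of 6 in the table, but the defining secretory marker KLK3 was low, at a log2 RPKM of -0.48 ± 0.0023 (SD, n = 2) with shNT, where HOXB13 stood at 7.84 ± 0.08 and KRT18 at 6.81 ± 0.13. With shCENPA2, KLK3 and KLK2 passed the test as lower and HOXB13 as higher, and none of the 6 passed with shCENPA1. The fibroblast marker COL1A1 had means of 0.03 to 0.15 in the 3 groups, and KRT5, TP63, PTPRC and PECAM1 were not analysed here. The part of these marker differences in the results for cyclins was not tested.

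Levels are given as log2 RPKM, the logarithm of reads scaled to gene length and library size, so that genes can be set against each other. In shNT cells CCND1, which encodes cyclin D1, stood far above the others at 9.05 ± 0.07 (SD, n = 2), an RPKM of 529 and the 99.8th percentile of the genes tested. CCNB1 followed at 5.62, then CDK4 at 5.34 and CDK2 at 5.33, whose libraries overlapped. Below them came CCNB2 at 4.48, CCNA2 at 3.89, CCNE2 at 3.33 and CCND3 at 2.76, each apart from its neighbours in both libraries. CCNE1 and CDK6 were lowest, both at 1.47, and overlapped.
With shCENPA1 the order became CCND1, CDK4, CDK2, CCNB1, CCNB2, CCND3, CCNA2 and CCNE2, followed by CDK6 and CCNE1, which overlapped. With shCENPA2 it was CCND1, CDK4, CDK2 and CCNB1, then CCNB2 and CCND3, which overlapped, then CCNA2, then CCNE2 and CDK6, which overlapped, and last CCNE1. CCNB1 thus moved from rank 2 to rank 4 among the 10 genes, below both kinases, and CCND3 from rank 8 to rank 6. Among all genes tested, CCNB1 stood at percentile 94.7 with shNT, 85.9 with shCENPA1 and 82.5 with shCENPA2. CCNA2 stood at 77.7, 54.9 and 48.5 in the same order of groups.

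**Figure D1:**
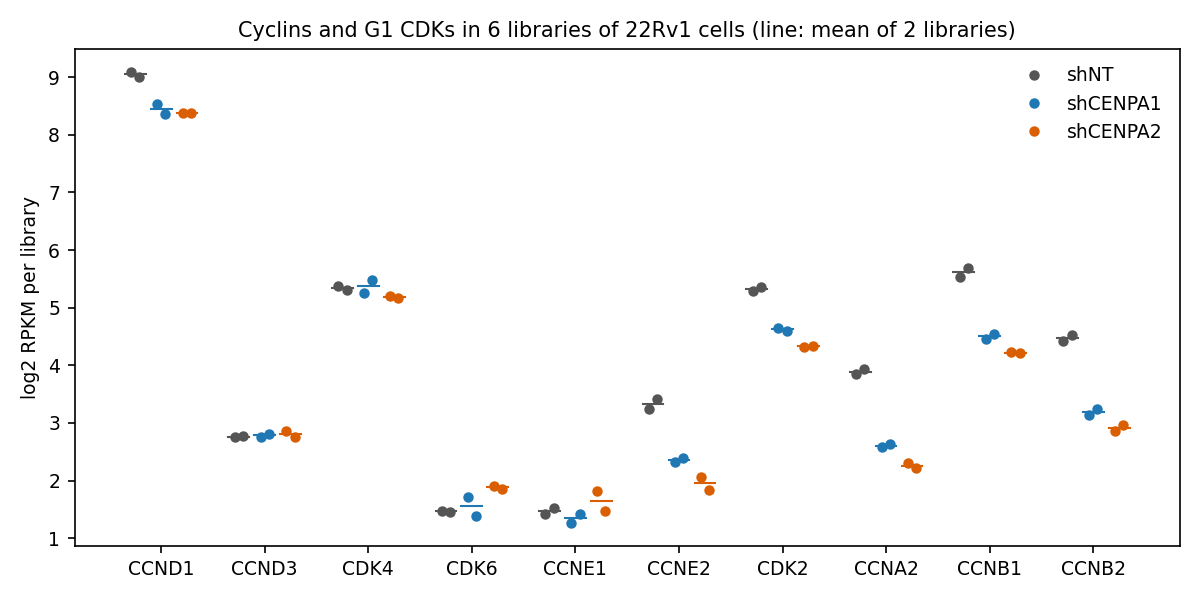
Log2 RPKM (vertical axis) of the 10 genes in each of 6 libraries, with points for single libraries of shNT (grey), shCENPA1 (blue) and shCENPA2 (orange) and a line for the mean of 2 libraries. CCND1 lies near 9 in shNT cells, and the shNT points of CCND1, CCNE2, CDK2, CCNA2, CCNB1 and CCNB2 lie above all 4 points of the CENPA-targeted shRNAs.

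CCND1, on chromosome 11 of GRCh38 from 69641156 to 69654474, encodes cyclin D1, an activator of CDK4 and CDK6. The shNT libraries had a log2 RPKM of 9.09 and 8.999. Those of shCENPA1 had 8.53 and 8.37, and those of shCENPA2 had 8.38 and 8.37. Both shNT libraries were higher than every knockdown library, and the groups of both CENPA-targeted shRNAs overlapped. CCND1 fell by 33.9% with shCENPA1 (log2 fold change -0.60, 95% CI -0.86 to -0.34, adjusted p = 0.0145) and fell by 37.1% with shCENPA2 (-0.67, 95% CI -0.93 to -0.41, adjusted p = 0.00375). In bulk RNA, fewer cells at the stage that makes an mRNA and less of that mRNA per cell cannot be told apart, which holds for every result here. The 2 shNT libraries serve as control for both shRNAs, which makes the comparisons dependent on each other. Whether CCND1 passed depended on single libraries. With shCENPA1 the adjusted p was 0.158 without shNT library 1, 0.101 without shNT library 2 and 0.0889 without shCENPA1 library 2. With shCENPA2 it was 0.0523 without shNT library 1.
CCND3, which encodes cyclin D3 (chromosome 6, 41934934 to 42050357), did not pass with either shRNA. Its log2 RPKM was 2.75 and 2.77 with shNT, 2.75 and 2.82 with shCENPA1, and 2.85 and 2.75 with shCENPA2, so that all 3 groups overlapped. The interval of the difference from shNT was -0.21 to 0.25 with shCENPA1 (adjusted p = 0.938) and -0.19 to 0.27 with shCENPA2 (adjusted p = 0.834), which leaves out a difference as large as that of CCND1.

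CDK4 (chromosome 12, 57747727 to 57756013) and CDK6 (chromosome 7, 92604921 to 92836573) encode the kinases that D cyclins activate. CDK4 had a log2 RPKM of 5.37 and 5.31 with shNT, 5.26 and 5.49 with shCENPA1, and 5.20 and 5.16 with shCENPA2. The shCENPA1 libraries lay on both sides of shNT, whereas both shCENPA2 libraries were below it, and neither difference passed. The difference of CDK4 from shNT was 0.04 with shCENPA1 (95% CI -0.19 to 0.26, adjusted p = 0.869) and -0.16 with shCENPA2 (95% CI -0.38 to 0.06, adjusted p = 0.310).
CDK6 had a log2 RPKM of 1.48 and 1.45 with shNT, 1.71 and 1.39 with shCENPA1, and 1.90 and 1.86 with shCENPA2. Both shCENPA2 libraries stood above shNT, and those of shCENPA1 lay on both sides of it. The difference was 0.42 with shCENPA2 (95% CI 0.09 to 0.74, adjusted p = 0.0758) and 0.09 with shCENPA1 (95% CI -0.24 to 0.41, adjusted p = 0.764). The shCENPA2 difference passed in 5 of 17 alternative fits and did not pass in 12. Its adjusted p was 0.0235 by voom on reads and 0.0459 with only the 2 groups in the fit. It was 0.0405 with the 12 runs fitted separately and the correlation of the lanes of a library estimated. The difference also passed without shCENPA1 library 1 or 2.

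Of the E cyclins, which activate CDK2 at the start of S phase, CCNE2 passed with both shRNAs and CCNE1 with neither. CCNE2 (chromosome 8, 94879770 to 94896678) had a log2 RPKM of 3.25 and 3.42 with shNT, 2.33 and 2.38 with shCENPA1, and 2.06 and 1.84 with shCENPA2. The 3 groups did not overlap. CCNE2 fell by 49.1% with shCENPA1 (log2 fold change -0.97, SE 0.12, adjusted p = 0.00137) and fell by 61.6% with shCENPA2 (-1.38, SE 0.12, adjusted p = 7.87e-05). CCNE1 (chromosome 19, 29811991 to 29824312) had 1.43 and 1.52 with shNT, 1.26 and 1.43 with shCENPA1, and 1.81 and 1.47 with shCENPA2. Both shCENPA1 libraries were below both shNT libraries, though only narrowly (1.425 beside 1.428), whereas the shCENPA2 libraries overlapped shNT. Those shCENPA2 libraries had an SD of 0.25, the largest within a group for any of the 10 genes. CCNE1 passed with neither shRNA. The interval of the difference was -0.48 to 0.22 with shCENPA1 (adjusted p = 0.674) and -0.18 to 0.52 with shCENPA2 (adjusted p = 0.505). CCNE1 rested on the fewest reads of the 10 genes, 491 to 945 per library.
CDK2 (chromosome 12, 55966781 to 55972789), the kinase partner of cyclins E and A, was at 5.30 and 5.37 with shNT, 4.65 and 4.60 with shCENPA1, and 4.32 and 4.34 with shCENPA2. Its libraries were closely spaced within each group, and the groups were apart. CDK2 fell by 38.6% with shCENPA1 (log2 fold change -0.70, SE 0.08, adjusted p = 0.00106) and fell by 50.02% with shCENPA2 (-1.001, SE 0.08, adjusted p = 6.2e-05). It was thus the only one of the 3 kinases that passed. The shCENPA2 value sits on the boundary of a log2 fold change of 1 and ranged from -1.03 to -0.97 over the alternative fits.

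Cyclins A2, B1 and B2 had the lowest fold changes of the 10 genes with both shRNAs, though those of CCNE2 with shCENPA1 and shCENPA2 lay within the intervals of CCNB1. CCNA2 (chromosome 4, 121816444 to 121823883), the cyclin of S phase and G2, had a log2 RPKM of 3.85 and 3.93 with shNT, 2.58 and 2.64 with shCENPA1, and 2.30 and 2.21 with shCENPA2. It fell by 58.9% with shCENPA1 (log2 fold change -1.28, SE 0.10, adjusted p = 0.000163) and fell by 67.7% with shCENPA2 (-1.63, SE 0.10, adjusted p = 1.46e-05), the lowest fold change of the 10 genes with shCENPA2.
CCNB1 (chromosome 5, 69167135 to 69178245), the major mitotic cyclin, had 5.54 and 5.70 with shNT, 4.46 and 4.54 with shCENPA1, and 4.22 and 4.21 with shCENPA2. It fell by 53.8% with shCENPA1 (log2 fold change -1.11, SE 0.09, adjusted p = 0.000194) and fell by 62.1% with shCENPA2 (-1.40, SE 0.09, adjusted p = 1.75e-05). CCNB2 (chromosome 15, 59105126 to 59125045), a second B cyclin, had 4.43 and 4.53 with shNT, 3.14 and 3.25 with shCENPA1, and 2.85 and 2.96 with shCENPA2. It fell by 58.9% with shCENPA1 (log2 fold change -1.28, adjusted p = 0.000138) and fell by 66.3% with shCENPA2 (-1.57, adjusted p = 1.5e-05). For all 3 cyclins the groups were apart, with shNT highest and shCENPA2 lowest, and each passed with both shRNAs in every alternative fit that was run.

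Exons of 4 of the 10 genes overlap an exon of another gene in the table on the opposite strand. The library kit keeps the strand, but the strand setting of the counting is not given in the sources used here, so these genes are uncertain to that extent. The partner of CCNE2, INTS8, differed from shNT by -0.13 with shCENPA1 and -0.05 with shCENPA2 (log2 fold changes, adjusted p = 0.517 and 0.799), and that of CDK2, PMEL, was at a log2 RPKM of -2.07 and -2.02 in the shNT libraries. The partner of CDK4, TSPAN31, differed by 0.35 and 0.24 (adjusted p = 0.144 and 0.239). EXOSC9, which overlaps CCNA2, differed by -0.31 with shCENPA1 (adjusted p = 0.141) and fell by 0.59 on the log2 scale with shCENPA2 (adjusted p = 0.00650). In the shNT libraries INTS8 was at a log2 RPKM of 3.49 and 3.61, above CCNE2 at 3.25 and 3.42. TSPAN31 was at 3.55 and 3.24 and EXOSC9 at 3.04 and 3.09, below CDK4 and CCNA2. The part of opposite-strand reads in the values of the 4 genes was not tested.

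Counted over the 10 genes, 6 passed the test (adjusted p under 0.05) with shCENPA1, all lower, where 4.45% of all genes tested passed as lower and 2.69% as higher. With shCENPA2 the same 6 genes passed, again all lower, where the share of all genes was 10.5% lower and 8.05% higher. The remaining 4, CCND3, CDK4, CDK6 and CCNE1, passed with neither. In the 6 genes that passed, all 4 knockdown libraries were below both shNT libraries, as in 20.5% of all genes tested. Passing as lower in these same libraries largely fixes this order, so it is not a separate result. With a log2 fold change beyond 1 required as well, 3 genes were called with shCENPA1 (CCNA2, CCNB1 and CCNB2), against 1.83% of all genes called lower. With shCENPA2, 5 were called (CCNE2 and CDK2 in addition), against 4.45% of all genes. The median log2 fold change of the 10 genes was -0.65 with shCENPA1 and -0.83 with shCENPA2, beside medians of 0.00 and 0.01 over all genes tested. By stage, all 3 of the S, G2 and mitotic cyclins passed, as did 2 of the 3 genes of the cyclin E and CDK2 step and 1 of the 4 genes of the cyclin D step.

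**Figure D2:**
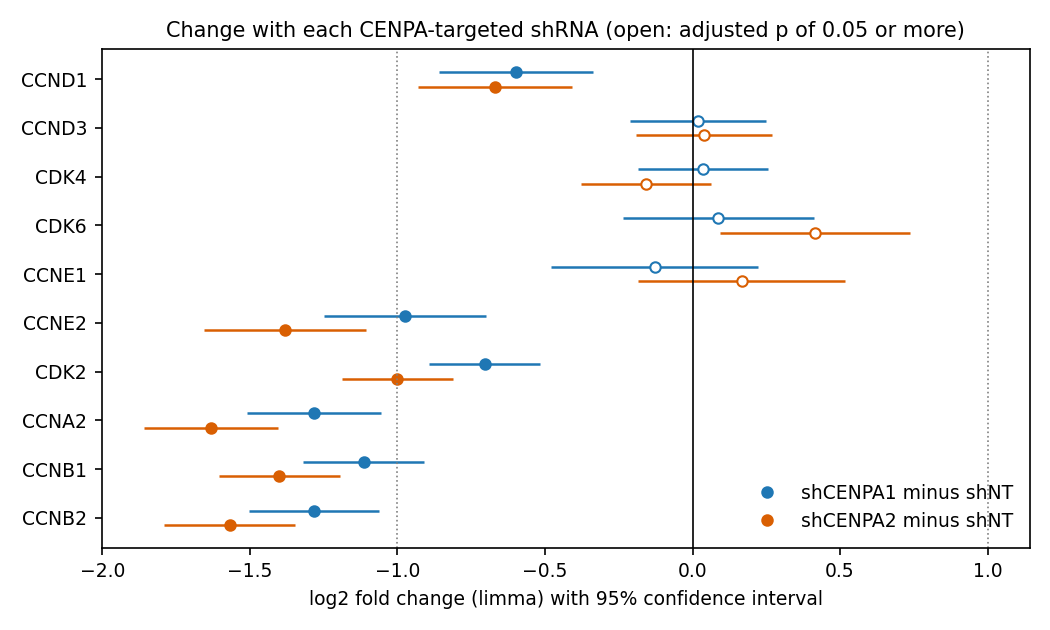
Log2 fold change (horizontal axis) of each gene for shCENPA1 minus shNT (blue) and shCENPA2 minus shNT (orange), from limma, with 95% confidence intervals as bars, filled points for an adjusted p under 0.05 and dotted lines at a log2 fold change of 1 in either direction. CCNA2, CCNB1 and CCNB2 lie left of the dotted line with both shRNAs, and the intervals of CCND3, CDK4 and CCNE1 include 0.

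Set against each other, shCENPA2 and shCENPA1 did not differ at the test's threshold for any of the 10 genes in limma's fit, where 1.42% of all genes tested passed. At an unadjusted p under 0.05 there were 6, namely CDK6, CCNE2, CDK2, CCNA2, CCNB1 and CCNB2, where 13.3% of all genes tested were under it. Voom on reads also passed 0, and the fit of 12 runs with an estimated correlation of lanes passed 1, CDK2 (adjusted p = 0.00940). All 6 genes that were lower than shNT had a lower mean with shCENPA2 than with shCENPA1, and in 5 of them, all but CCND1, both shCENPA2 libraries were below both shCENPA1 libraries. This was so for 20.2% of all genes tested and for 58.4% of the 604 genes that passed as lower than shNT with both shRNAs, so 5 of 6 is read beside the latter share. The difference was -0.41 for CCNE2 (95% CI -0.68 to -0.13, adjusted p = 0.172), -0.35 for CCNA2 (adjusted p = 0.158), -0.30 for CDK2 (adjusted p = 0.149), -0.29 for CCNB1 (adjusted p = 0.205) and -0.28 for CCNB2 (adjusted p = 0.243), all as log2 fold changes. CCND1 differed by only -0.07 (adjusted p = 0.843). CDK6 was higher with shCENPA2 by 0.33 (95% CI 0.01 to 0.65, adjusted p = 0.367).

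Relative levels of related genes within a library do not depend on how libraries were scaled, and 5 pairs were compared between the 2 shNT libraries and the 4 knockdown libraries. The exact two-sided permutation test of 2 against 4 libraries cannot give a p below 0.133, so none could pass. CCND1 exceeded CCND3 by 6.28 on the log2 RPKM scale with shNT, 5.66 with shCENPA1 and 5.57 with shCENPA2, that is 77.8-fold, 50.7-fold and 47.6-fold, and it was the higher of the 2 genes in every library (exact p = 0.133, adjusted p = 0.167). The levels of the E cyclins were closer to each other in the knockdown libraries. Of the summed RPKM of both E cyclins, CCNE1 made up 22.1% and 21.1% with shNT. This share was 32.3% and 34.0% with shCENPA1 and reached 45.7% and 43.5% with shCENPA2 (exact p = 0.133, adjusted p = 0.167 for the log2 difference). Of these genes CCNE2 was lower and CCNE1 did not pass.
CCNB1 stood above CCNB2 by 2.20-fold with shNT and by 2.48-fold with each CENPA-targeted shRNA, a small shift (exact p = 0.133, adjusted p = 0.167). The log2 difference was 1.11 and 1.17 with shNT, 1.32 and 1.30 with shCENPA1, and 1.37 and 1.25 with shCENPA2. All 4 knockdown libraries were thus above both shNT libraries. CCNA2 relative to its kinase CDK2 went from -1.44 on the log2 scale with shNT to -2.02 with shCENPA1 and -2.07 with shCENPA2 (exact p = 0.133, adjusted p = 0.167). CDK4 exceeded CDK6 by 14.6-fold with shNT, 14.1-fold with shCENPA1 and 9.84-fold with shCENPA2. The shCENPA1 libraries of this pair lay on both sides of shNT, at 3.55 and 4.09 on the log2 scale beside a mean of 3.87 (exact p = 0.4, adjusted p = 0.4).

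**Figure D3:**
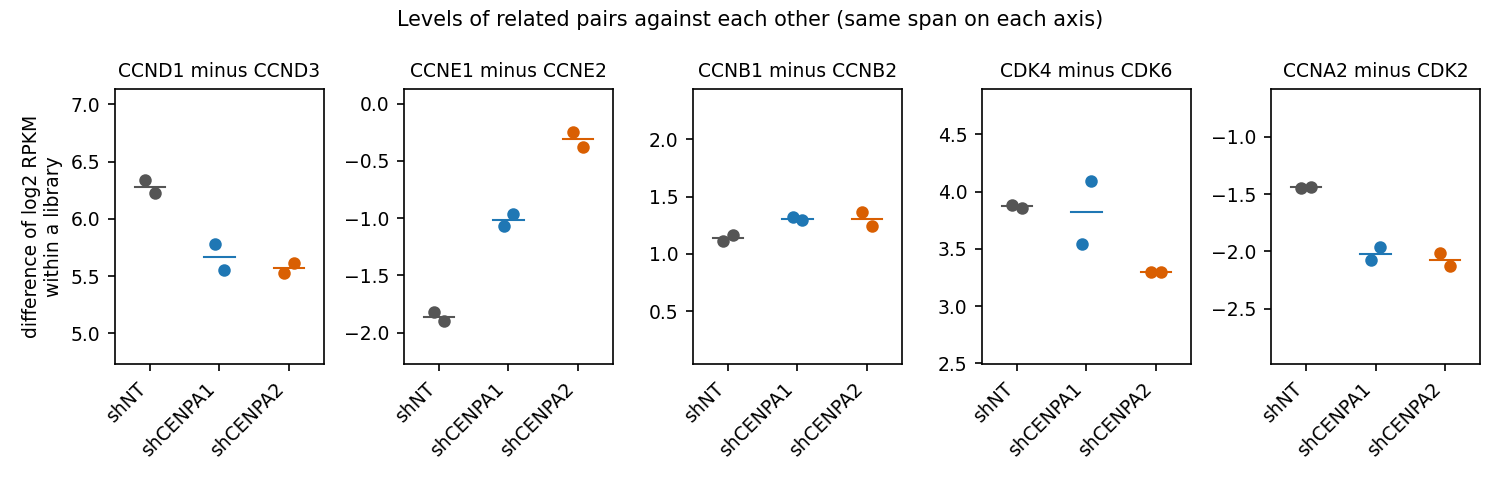
Difference of log2 RPKM between 2 related genes within a library (vertical axes, all of the same span) for 5 pairs, with points for single libraries and lines for the mean of 2 libraries per shRNA. CCNE1 minus CCNE2 goes from a mean of -1.86 with shNT to -1.01 with shCENPA1 and -0.31 with shCENPA2. The mean of CCNB1 minus CCNB2 goes from 1.14 with shNT to 1.31 with each CENPA-targeted shRNA.

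Other genes of the pathway were taken from lists written by hand. Their counts are read beside the shares of all genes tested. With shCENPA1, 4.45% passed as lower and 2.69% as higher, and with shCENPA2, 10.5% and 8.05%. Of 16 other cyclins tested, 1 passed as lower with both shRNAs, or 6.25%, which is near the shares of all genes. It was CCNF, an F-box protein that directs protein degradation in G2, at log2 fold changes of -0.56 with shCENPA1 and -0.58 with shCENPA2 (adjusted p = 0.0337 and 0.0140). CCNJ, named after its value was seen, passed as higher with shCENPA2 (0.50, adjusted p = 0.0233). The transcription-associated cyclins CCNT2 and CCNL1 had -0.28 and -0.19 with shCENPA1 and -0.36 and -0.34 with shCENPA2, CCNO had -0.13 and 0.21, and none of these passed. The median of the other cyclins was -0.10 and 0.02. The list held 19 cyclins, of which 16 had expression values. CCNA1, CCND2 and CCNJL were not analysed here.
Of 14 other CDKs, 2 passed as lower with shCENPA1 and 3 with shCENPA2. CDK1, the kinase of cyclins A and B and the driver of mitosis, stood first, with log2 fold changes of -1.16 and -1.66 (adjusted p = 0.000191 and 9.87e-06), and it was lower with shCENPA2 than with shCENPA1 (-0.50, adjusted p = 0.0364). CDK14, a kinase that works with cyclin Y, had -0.59 and -0.82 (adjusted p = 0.0181 and 0.00152), and CDK19, a kinase of the Mediator complex, had -0.33 and -0.49 (adjusted p = 0.157 and 0.0215). CDK9, which releases paused RNA polymerase, had 0.21 and 0.23 and did not pass. The median of the other CDKs was -0.02 with shCENPA1 and -0.08 with shCENPA2.

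Genes that activate cyclin-CDK complexes were mostly lower. Of 7 subunits and activators tested, 5 passed as lower with each shRNA, with list medians of -0.69 and -0.81. CKS2, a small subunit that binds CDK1 and CDK2, had log2 fold changes of -1.26 and -1.75 (adjusted p = 9.98e-05 and 6.3e-06) and was also lower with shCENPA2 than with shCENPA1 (-0.49, adjusted p = 0.0329). The phosphatases that remove inhibitory phosphate from CDKs were all lower, with -1.31 and -1.44 for CDC25C, -1.07 and -1.20 for CDC25A, and -0.69 and -0.68 for CDC25B. The fifth was CKS1B, a relative of CKS2 (-0.50 and -0.81), named after its values were seen.
Of 10 CDK inhibitors and inhibitory kinases, 5 passed as lower with each shRNA, and the medians were -0.46 and -0.42. CDKN3, a phosphatase that inactivates CDKs, had -1.33 and -1.52. WEE1 and PKMYT1, the kinases that hold CDK1 inactive until mitosis, had -0.95 and -1.38, and -1.02 and -1.65. CDKN2C, an inhibitor of CDK4 and CDK6, had -0.45 and -0.56 (adjusted p = 0.0233 and 0.00372). The fifth passing gene was CDKN1A with shCENPA1 (-0.47, adjusted p = 0.0307) and CDKN1C with shCENPA2 (-0.999, adjusted p = 0.0111), which encode the inhibitors p21 and p57 and were named after their values were seen.

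Downstream of CDK4 and CDK6, 4 of 13 RB and E2F genes passed as lower with shCENPA1, and 5 as lower and 1 as higher with shCENPA2, with medians of -0.25 and -0.23. E2F1, an activator of S phase genes, had log2 fold changes of -1.05 and -1.41 (adjusted p = 0.00188 and 0.000155). The atypical repressors E2F7 and E2F8 had -1.44 and -1.63, and -1.53 and -1.88. RBL1, which encodes the RB relative p107, had -0.64 and -0.73 (adjusted p = 0.0394 and 0.0110). E2F2 passed with shCENPA2 only (-1.73, adjusted p = 0.00779, beside -1.01 and 0.124 with shCENPA1), and TFDP2, a partner of E2F proteins, was the gene that passed as higher (0.39, adjusted p = 0.0450), both named after their values were seen.
Of 12 genes of cyclin turnover, 3 passed as lower with shCENPA1 and 4 with shCENPA2, with medians of -0.07 and -0.10. UBE2C and CDC20, which act with the anaphase-promoting complex to destroy cyclins A and B, had -1.13 and -1.59, and -0.90 and -1.48. SKP2, which directs degradation of the CDK inhibitor p27, had -0.57 and -0.76. UBE2S, which extends ubiquitin chains for the same complex, had -0.30 (adjusted p = 0.180) and -0.52 (adjusted p = 0.0150).

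**Figure D4:**
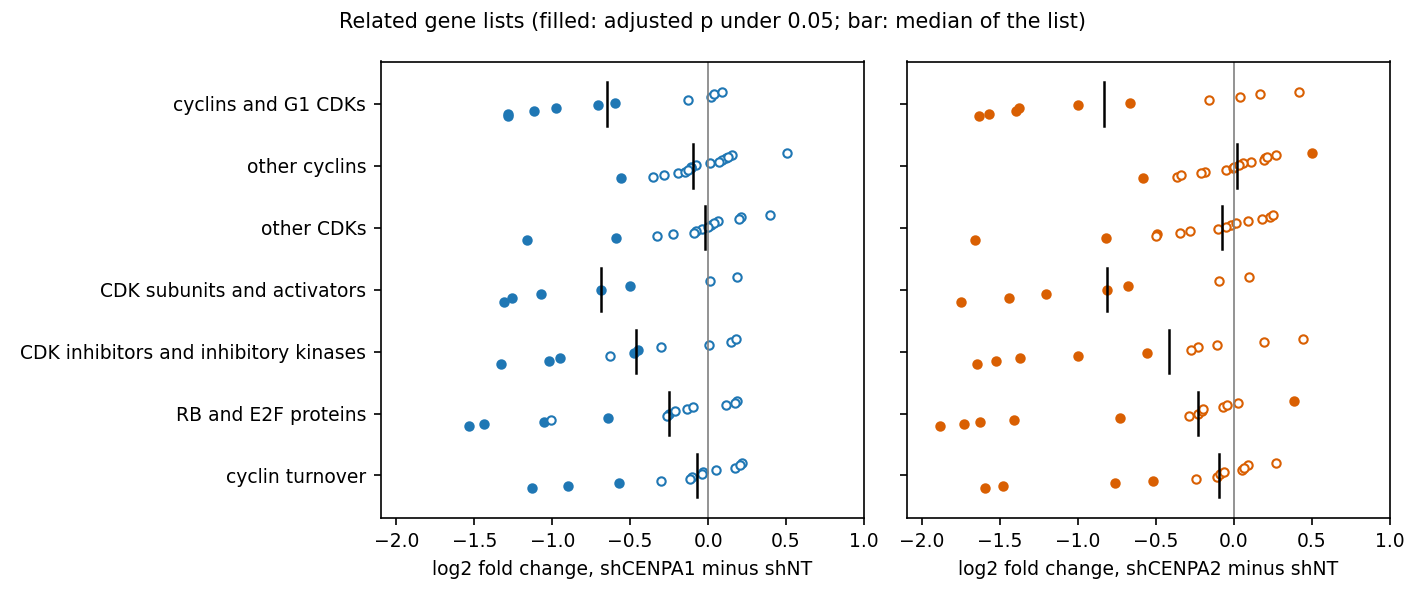
Log2 fold change (horizontal axes) of each tested gene in the 10 cyclins and G1 CDKs and in 6 related lists, for shCENPA1 minus shNT (left) and shCENPA2 minus shNT (right), with filled points for an adjusted p under 0.05 and a vertical bar for the median of a list. The medians of the 10 genes lie at -0.65 and -0.83, beside -0.10 and 0.02 for the other cyclins and -0.02 and -0.08 for the other CDKs.

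For 4 of the genes, the 3 genes with the most similar profile were found as those with the smallest root mean square difference of centred log2 RPKM over the 6 libraries, among 12049 genes expressed at a mean log2 RPKM not under 0. For CCNB1 these were METTL7A (0.0601), SPAG5 (0.0618) and ORC6 (0.0657), and for CCNE2 they were ARHGEF39 (0.0443), RFC4 (0.0687) and FANCI (0.0729). For CCND1 they were DPY19L3 (0.0398), MAP3K5 (0.0450) and PEG10 (0.0492). CDK4 was nearest to BOD1 (0.0153), EIF3B (0.0168) and MAZ (0.0201), whose differences from shNT were as small as its own. The points share 6 libraries and 1 design, so likeness here describes similar differences between libraries, both between groups and within them. For CDK4 the shCENPA1 libraries, at 5.26 and 5.49, were further apart than either knockdown mean was from the shNT mean.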

How the data were processed

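mRNA of 22Rv1 cells was sequenced from strand-specific libraries, 2 per shRNA. By the labels and the methods of the study, the authors used Trim Galore for trimming, STAR for alignment (hg38), HTSeq for counting and edgeR for analysis, and versions and the strand setting of the counting are not given in the sources used here. The authors deposited log2 RPKM for 14828 genes in 12 runs, with a prior of on average 0.25 reads added before the logarithm. The steps between low values gave back whole reads for 14828 of 14828 genes (all within 4.5e-08 of a whole read), and gave the depth of 79172294 to 133074655 reads per library. Per gene, chi-square was 1.24 to 1.31 between lanes of a library and 26.5 to 80.1 between libraries of a group, so lanes were averaged.

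The 14624 genes whose log2 RPKM averaged -3 or more were tested with limma 3.58.1 in R 4.3.3 (lmFit, eBayes with a trend), all 3 groups in one fit without covariates, with Benjamini-Hochberg adjustment over all genes tested. Passing means an adjusted p under 0.05, and a call needs also a log2 fold change above 1 or below -1. For 1 gene in 2 against 2 libraries, the smallest exact permutation p is 0.333, so calls rest on the spread limma shares across genes. Recovery and fit were tested on simulated data. Ratios were tested with exact permutation tests (scipy 1.17.1).

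The members, lists, thresholds and motifs were chosen with earlier results of these data known. Named are the members, CENPA, up to 4 genes of each list with the smallest adjusted p (the larger of both comparisons with shNT), and the 3 nearest profiles of CCNB1, CCND1, CCNE2 and CDK4. Genes outside this rule are marked in the text as named after their values were seen, except genes whose exons overlap a member and cell type markers. Gene positions are from GENCODE 44 and promoters from RefSeq. Alternatives were the 12 runs with the correlation of lanes of a library estimated (0.878), other filters, constants of 0.1 and 1 added to RPKM, median-centred and quantile-normalized libraries, no trend, only the groups compared, a replicate block, each library left out, and voom on the recovered reads. A block with crossed library numbers was added after seeing the data.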

Additional observations from a re-analysis of the deposited data

How the results depend on the processing

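Of 520 log2 fold changes of the 10 genes over the alternatives, 501 stayed on their side of the threshold with the same sign, 4 no longer passed (CCND1, with libraries left out), 6 passed in addition (CDK6 with shCENPA2 in 5, and CDK2 between both shRNAs in 1) and 9 changed sign. Against shNT, the 6 genes that passed were lower in every alternative. The log2 fold change of 1 that a call needs was reached by CCNE2 with shCENPA1 without shNT library 1 (-1.06) and without shCENPA1 library 2 (-1.002), which makes 4 genes called. CDK2 with shCENPA2 no longer reached it, which leaves 4, with 0.1 or 1 added to RPKM, with median-centred libraries, by voom, without shNT library 2 and without shCENPA2 library 1. Under a replicate block, 383, 891 and 95 genes were called for shCENPA1 against shNT, shCENPA2 against shNT and shCENPA2 against shCENPA1, beside 388, 897 and 107 without it, and none of the 10 genes changed in passing or being called. Deviations of same-numbered libraries correlated at -0.06, -0.10 and -0.15, so no pairing by library number was seen. With the numbers of shCENPA2 crossed, an alternative chosen after seeing the data, 170 genes were called and 389 passed between both shRNAs. Without a block these were 107 and 208. Other pairings of libraries were not tested.

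With log2(RPKM + 1) the counts called were 119, 317 and 17, a constant that shrinks changes of low genes, and with only genes averaging a log2 RPKM of 0 or more, a smaller number tested, they were 529 for shCENPA2 against shNT and 53 between both shRNAs. Leaving out single libraries gave 252 to 427, 775 to 1074 and 22 to 224. The lowest for shCENPA1 against shNT came without shCENPA1 library 2. Between both shRNAs the count was 42 and 22 without shCENPA1 library 1 or 2 and 224 without shCENPA2 library 1. The lone library left is then assumed to vary like the other groups. Genes passing the test numbered 1044, 2712 and 208. They numbered 1862 and 519 for the first and last comparison with 12 runs and an estimated correlation of lanes, which gives 1 of the 10 genes between both shRNAs, and 343 by voom and 138 without the trend for the last. Leaving out a library moved them to between 397 and 1403, 1360 and 2596, and 28 and 372. For shCENPA1 they were 538 and 445 without shNT library 1 or 2, and 607 and 397 without shCENPA1 library 1 or 2. For shCENPA2 they were 1436 and 1360 without shNT library 1 or 2. Between both shRNAs they were 57 and 28 without shCENPA1 library 1 or 2, and 372 without shCENPA2 library 1.

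Signs turned only for differences near 0 that did not pass. With a library left out, the difference from shNT with shCENPA1 ranged from -0.013 to 0.051 for CCND3, from -0.079 to 0.15 for CDK4 and from -0.071 to 0.246 for CDK6. With shCENPA2 it ranged from -0.013 to 0.089 for CCND3 and from -0.0078 to 0.341 for CCNE1. Between both shRNAs it ranged from -0.152 to 0.0090 for CCND1, which was 0.044 with quantile normalization, and from -0.032 to 0.070 for CCND3. Apart from what is said here of the number of genes tested and the constant, the cause was not tested. The number of libraries limits the precision, and CCNE1 also rests on few reads (491 to 945 per library).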
